A study of Mus musculus with 12 samples.

Results

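The Purkinje identity and zebrin stripe genes described here are 10 of the 54752 genes counted. They were taken by symbol from a list of Purkinje cell markers and stripe genes, chosen with earlier results of these data known. Purkinje cells are the output neurons of the cerebellar cortex. They receive parallel fibre and climbing fibre input and inhibit the neurons of the cerebellar nuclei. They share a set of strongly expressed genes, and they also differ among themselves in parasagittal stripes that are recognised by zebrin II, the product of Aldoc. In zebrin-positive stripes Aldoc, Plcb3 and Slc1a6 are high, and in zebrin-negative stripes Plcb4 is high. The genes were grouped accordingly as 6 identity genes (Pcp2, Pcp4, Ppp1r17, Rgs8, Skor2 and Foxp2), 3 zebrin-positive genes and 1 zebrin-negative gene. All 10 symbols matched 1 gene each, and all 10 passed the filter on low counts in each comparison.

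Poly(A) RNA was sequenced from the cerebellar cortex of 12 male wild-type mice, F1 hybrids of C57BL6J and FVB, at 12 weeks of age. There were 4 mice on ad libitum feeding (AL), 4 on dietary restriction (DR) and 4 on a ketogenic diet (KD). DR mice received portions below the AL intake that were lowered in steps and given just before the dark phase, and they were sacrificed without their last meal, so that restriction and time since food cannot be told apart. The composition and duration of KD are not given in the sources used here. Each library was made from dissected cortex that spanned the mediolateral extent of the cerebellum and left out the nuclei, and for AL and DR the study had picked the 4 mice on RNA quality. Stripes were not dissected, so a stripe gene was measured over zebrin-positive and zebrin-negative cells together. In such bulk samples fewer Purkinje cells and less RNA per Purkinje cell cannot be told apart. Libraries held from 31712084 to 40798644 counts. The lowest count of any of the 10 genes was 197, for Foxp2, and the highest was 74168, for Aldoc.

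The tissue was checked by markers of other regions. Forebrain genes, led by Neurod6, summed to between 2.65 and 3.82 CPM (counts scaled to a common library size) over 2 genes. The other, Drd1, was at 0.0575 to 0.314 CPM. The hindbrain genes Hoxb3, Hoxb5 and Slc6a4 summed to at most 0.246 CPM, and they were at 0 in 8, 7 and 4 libraries. The granule cell list, 8 genes, summed to between 6202 and 6630 CPM, and the Purkinje identity genes to between 1808 and 2201 CPM. The markers expected of cerebellar cortex were therefore abundant in every library, the hindbrain genes were near 0 and the forebrain genes were low. Neurod6 was detected throughout, with 83 to 138 counts a library, and its source was not tested.

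Genomic positions and the stretches before the start sites are given for orientation, in build GRCm38.p6. Pcp2 lies on the minus strand of chromosome 8 (3623371 to 3625545), Pcp4 on chromosome 16 (96467606 to 96525793), Ppp1r17 on chromosome 6 (56017497 to 56032689), Rgs8 on chromosome 1 (153653025 to 153700323) and Foxp2 on chromosome 6 (14901349 to 15441977). Of the stripe genes, Aldoc lies on chromosome 11 (78322968 to 78327781), Plcb3 on the minus strand of chromosome 19 (6953714 to 6969759), Slc1a6 on chromosome 10 (78780496 to 78814765) and Plcb4 on chromosome 2 (135659011 to 136014593). RefSeq promoter windows of 300 bases were at hand for 7 of the 10 genes. Rora, a nuclear receptor required for Purkinje cell maturation, binds DNA at the half-site AGGTCA, so these letters and their reverse complement TGACCT were sought. Among the windows nearest to the gene start, 3 of 7 held a match (Pcp2, Pcp4 and Plcb3), and 16.3% of all 32851 windows did. A match describes letters only. The stretches of Pcp2 and Pcp4, the namesake Purkinje cell protein genes, and of Rgs8, the gene of the 10 with the lowest p on DR, are printed on the strand of the gene with the half-site in capitals. They end at the base before the first annotated start, at chr8:3625548-3625797 (minus strand), chr16:96467356-96467605 and chr1:153652787-153653024. The letters are those of the C57BL/6J reference, and the F1 mice also carry FVB alleles.
Pcp2: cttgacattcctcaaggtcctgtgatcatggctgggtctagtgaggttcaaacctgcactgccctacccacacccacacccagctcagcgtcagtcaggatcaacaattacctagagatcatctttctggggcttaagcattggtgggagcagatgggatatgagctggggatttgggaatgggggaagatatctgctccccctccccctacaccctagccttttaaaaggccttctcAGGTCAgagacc
Pcp4: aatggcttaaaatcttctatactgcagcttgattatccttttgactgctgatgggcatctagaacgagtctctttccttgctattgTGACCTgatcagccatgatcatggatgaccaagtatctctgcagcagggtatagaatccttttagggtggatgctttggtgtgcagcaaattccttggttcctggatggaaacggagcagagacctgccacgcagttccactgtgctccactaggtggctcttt
Rgs8: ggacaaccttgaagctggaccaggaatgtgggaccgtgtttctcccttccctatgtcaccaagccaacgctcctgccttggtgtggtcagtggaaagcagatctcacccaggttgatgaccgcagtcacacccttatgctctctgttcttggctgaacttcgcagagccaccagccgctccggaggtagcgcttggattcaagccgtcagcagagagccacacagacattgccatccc

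The half-site began 12 bases before the start in Pcp2 and 164 bases before it in Pcp4, where it was in the reverse orientation. Rgs8 had none in this stretch, which is part of the first of its 3 RefSeq windows. The window at chr1:153665423-153665722, of a start further within the gene, held a match before that start.

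Levels were compared between genes per kilobase of exon. This length takes in every annotated exon of a gene, whether or not it is used in this tissue, so the order is approximate. Aldoc had the highest level, with a median of 508 CPM per kilobase (range 455 to 560 over 12 libraries). Pcp2 (median 165), Rgs8 (156) and Ppp1r17 (133 CPM per kilobase) followed, with ranges that overlapped between neighbours. Slc1a6 (54.0) stood apart from the genes above and below it. Plcb4 (42.4) and Pcp4 (34.4) overlapped. Plcb3 (24.7), Skor2 (4.76) and Foxp2 (0.472 CPM per kilobase) each had a range of their own. The transcription regulators Skor2 and Foxp2 were thus the lowest of the 10 on this scale. Aldoc is also made by astrocytes and Bergmann glia, so its level is not that of Purkinje cells alone.

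**Figure D1:**
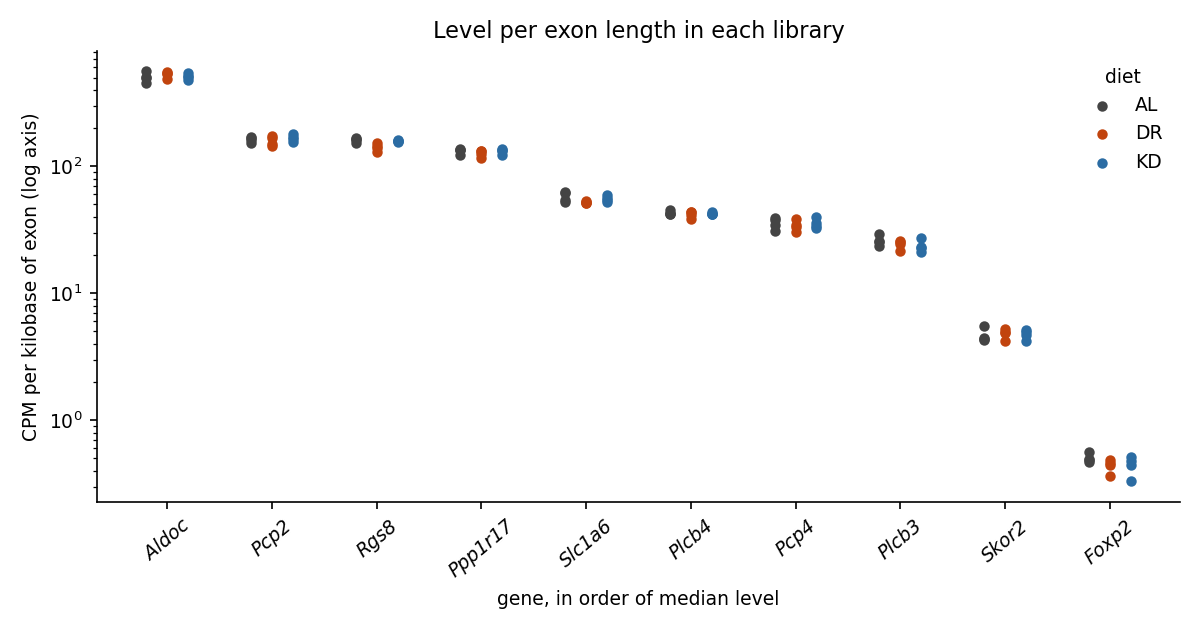
Level of each gene in CPM per kilobase of exon, on a log axis, in order of the median. Each point is 1 of 12 libraries, coloured by diet; Aldoc was highest (median 508) and Foxp2 lowest (median 0.472).

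The first question was whether DR altered these genes against AL. None of the 10 was called by edgeR (quasi-likelihood test, Benjamini-Hochberg adjusted p below 0.05), where 3.06% of 19052 genes were called. By an unadjusted p under 0.05 there were 2 of 10, Rgs8 and Slc1a6, against 18.0% of all genes. The log2 fold change was below 0 for 8 of 10, with a median of -0.069, and over all genes tested 49.0% were below 0 with a median of 0.0036.

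Rgs8 encodes a regulator of G protein signalling that speeds the switching off of G proteins. It was at 1596, 1576, 1546 and 1482 CPM in the AL mice, at 1381, 1258, 1355 and 1474 CPM in the DR mice, and at 1513, 1565, 1511 and 1500 CPM in the KD mice. All 4 DR mice lay below all AL and all KD mice, with DR replicate 4 close to the lowest AL mouse. AL and KD overlapped. The mean was 1550 ± 49.7 CPM with AL feeding and 1367 ± 89.1 CPM with DR (SD, n = 4 each). The log2 fold change on DR was -0.18 (95% confidence interval -0.29 to -0.070), with an adjusted p of 0.0760 by edgeR. Among all genes, 5.56% were lower on DR without overlap. The call turned with the method: the adjusted p was 0.0138 with DESeq2, 0.0329 with edgeR's likelihood ratio test, 0.00636 without a filter, 0.0269 with all 12 libraries in 1 fit and 0.0455 without DR replicate 4. Over the 15 alternatives it ran from 0.00636 to 0.211. The study, also with edgeR, called a larger share of genes on DR and listed Rgs8 among its abundant genes that were lower. Which of edgeR's tests it used is not stated.

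Slc1a6 encodes EAAT4, the glutamate transporter of Purkinje cells, which is denser in zebrin-positive stripes. It was at 134.5, 131.6, 113.1 and 116.8 CPM on AL and at 112.0, 110.4, 110.6 and 115.5 CPM on DR. The DR mice lay close together, and AL replicates 1 and 2 stood above the other AL mice, so the groups overlapped. Its log2 fold change on DR was -0.15 (95% confidence interval -0.26 to -0.027, edgeR adjusted p = 0.179). On KD it was at 120.2, 117.0, 112.9 and 127.7 CPM.

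Foxp2, a forkhead transcription factor, had the lowest log2 fold change on DR of the 10, at -0.21, but also the widest interval (-0.43 to 0.0095, edgeR adjusted p = 0.300). It averaged 8.24 ± 0.636 CPM with AL feeding and 7.14 ± 0.876 CPM with DR (SD, n = 4 each), and the mice overlapped. The difference was -0.13 without DR replicate 3 and -0.15 without AL replicate 2, and Rgs8 was then the lower of them (-0.18 and -0.17). Skor2, a corepressor of transcription needed for Purkinje cell differentiation, averaged 14.6 ± 1.86 CPM with AL feeding and 15.1 ± 1.31 CPM with DR. Its log2 fold change was 0.054 (-0.15 to 0.25).

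The remaining identity genes had log2 fold changes of -0.070 to -0.039 on DR. Pcp2, which encodes a modulator of G protein alpha subunits, was at 304.2, 292.9, 279.7 and 312.8 CPM on AL, at 314.6, 273.7, 262.9 and 306.5 CPM on DR and at 299.7, 330.8, 286.2 and 311.0 CPM on KD. The 3 diets overlapped, and the highest DR mouse was above every AL mouse. The log2 fold change of Pcp2 on DR was -0.039 (95% confidence interval -0.16 to 0.087). Pcp4, which encodes a small calmodulin-binding protein, differed by -0.070 (-0.24 to 0.096). Ppp1r17, which encodes a phosphatase inhibitor that is a substrate of cGMP-dependent kinase, differed by -0.067 (-0.17 to 0.039). Its difference was -0.034 without DR replicate 3 and -0.099 without AL replicate 3. The interval of Pcp4 includes the -0.18 measured for Rgs8, and those of Pcp2 and Ppp1r17 end just short of it. The log2 ratio of Rgs8 to Pcp2 overlapped between AL (2.24 to 2.47) and DR (2.13 to 2.37). Whether these genes differed from Rgs8 in their response was not tested.

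Pcp2 and Pcp4 share exon bases with other genes, and the library kit does not mark strand. Of Pcp2's exon bases 51.5% overlap Pet100 on the other strand, which was at 7.79 to 10.2 CPM. Of Pcp4's exon bases 23.7% overlap Igsf5, which was at most at 0.148 CPM. Of the other 8 genes, Rgs8 shared 0.726% of its exon bases and the rest none. The values of Pcp2 and Pcp4 are uncertain to the extent that reads were shared.

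Of the stripe genes, Aldoc encodes the glycolytic enzyme aldolase C. It was at 1828, 1653, 1484 and 1624 CPM on AL, at 1774, 1586, 1735 and 1791 CPM on DR and at 1643, 1664, 1555 and 1762 CPM on KD. The diets overlapped, and both the highest and the lowest mouse were on AL. The log2 fold change on DR was 0.064 (95% confidence interval -0.067 to 0.20). Plcb3 encodes a phospholipase C beta isoform that acts below metabotropic glutamate receptors in zebrin-positive cells. It averaged 109.0 ± 10.8 CPM with AL feeding and 101.8 ± 7.99 CPM with DR (SD, n = 4 each), so that the log2 difference was -0.099 (-0.25 to 0.049), and -0.027 without AL replicate 1. Plcb4, the isoform of zebrin-negative cells, was at 379.0, 380.2, 384.5 and 403.4 CPM on AL, at 346.3, 392.1, 388.6 and 371.8 CPM on DR and at 380.1, 377.6, 394.1 and 377.2 CPM on KD. DR replicate 1 was the lowest of the 12 and AL replicate 4 the highest, and the other libraries lay within a narrow band. Its log2 fold change on DR was -0.046 (-0.15 to 0.057). None of these 3 was called (edgeR adjusted p of 0.496 to 0.680).

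**Figure D2:**
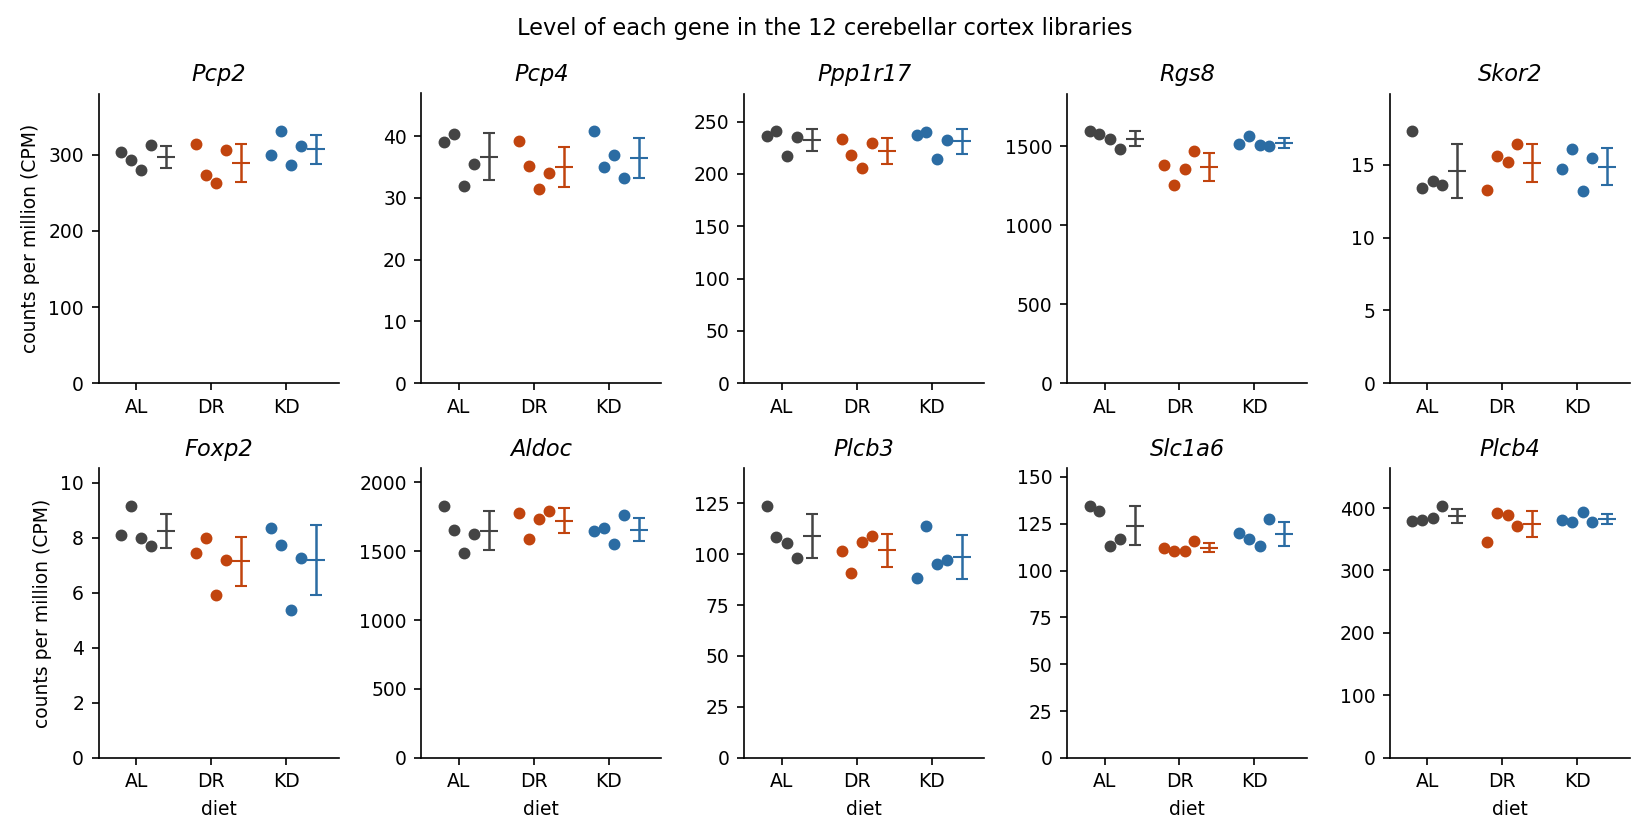
CPM of each of the 10 genes in each mouse on AL, DR and KD (y axes from 0). Points are mice in order of replicate number, and the bar beside them is the mean with 1 SD (n = 4); the DR mice lay below all others for Rgs8, at 1258 to 1474 CPM.

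The second question was whether KD altered the genes against AL. None of the 10 was called, and neither was any of the 19036 genes tested (0.00%) by edgeR's quasi-likelihood test. By an unadjusted p under 0.05 there were 0 of 10 and 4.87% of all genes (928 genes). DESeq2 called 10 genes and the likelihood ratio test 18, none of them among the 10. Log2 fold changes were below 0 for 7 of 10, with a median of -0.012, and for 49.9% of all genes, with a median of 0.00021. The lowest were those of Foxp2 (-0.20, 95% confidence interval -0.44 to 0.050) and Plcb3 (-0.14, -0.30 to 0.016). Foxp2 was at 8.36, 7.74, 5.39 and 7.26 CPM on KD, and without KD replicate 3 the difference was -0.082. Plcb3 differed by -0.078 without AL replicate 1, by -0.095 without KD replicate 1 and by -0.22 without KD replicate 2. Rgs8, at 1523 ± 29.0 CPM on KD (SD, n = 4), differed from AL by -0.024 (-0.10 to 0.051). This interval does not reach the -0.18 measured on DR, but it overlaps the interval on DR (-0.29 to -0.070). Both comparisons share the AL mice. Pcp2 had the highest log2 fold change, 0.047 (-0.055 to 0.15). This rank depended on single libraries. Without KD replicate 2 the difference of Pcp2 was 0.0085, below that of Pcp4 (0.0098). Without AL replicate 1 Skor2 (0.12) and Aldoc (0.062) were above Pcp2 (0.057).

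The third comparison set KD against DR. It shares its mice with both others, so its values are not separate evidence. None of the 10 was called, against 4.94% of 19087 genes, and 1 of 10 had an unadjusted p under 0.05, against 18.7%. That gene was Rgs8, with a log2 fold change of 0.16 (95% confidence interval 0.052 to 0.26, edgeR adjusted p = 0.0817). Every KD mouse was above every DR mouse for Rgs8, which was so, in this direction, for 5.99% of all genes. The adjusted p was 0.0176 with DESeq2, 0.0251 without a filter and 0.0326 without DR replicate 4, and the 15 alternatives ran from 0.0176 to 0.203. Slc1a6 differed by 0.091 (-0.0041 to 0.19) and Aldoc by -0.057 (-0.16 to 0.051). The difference of Slc1a6 was 0.057 without KD replicate 4. That of Aldoc was -0.094 without DR replicate 2 and -0.027 without KD replicate 3.

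**Figure D3:**
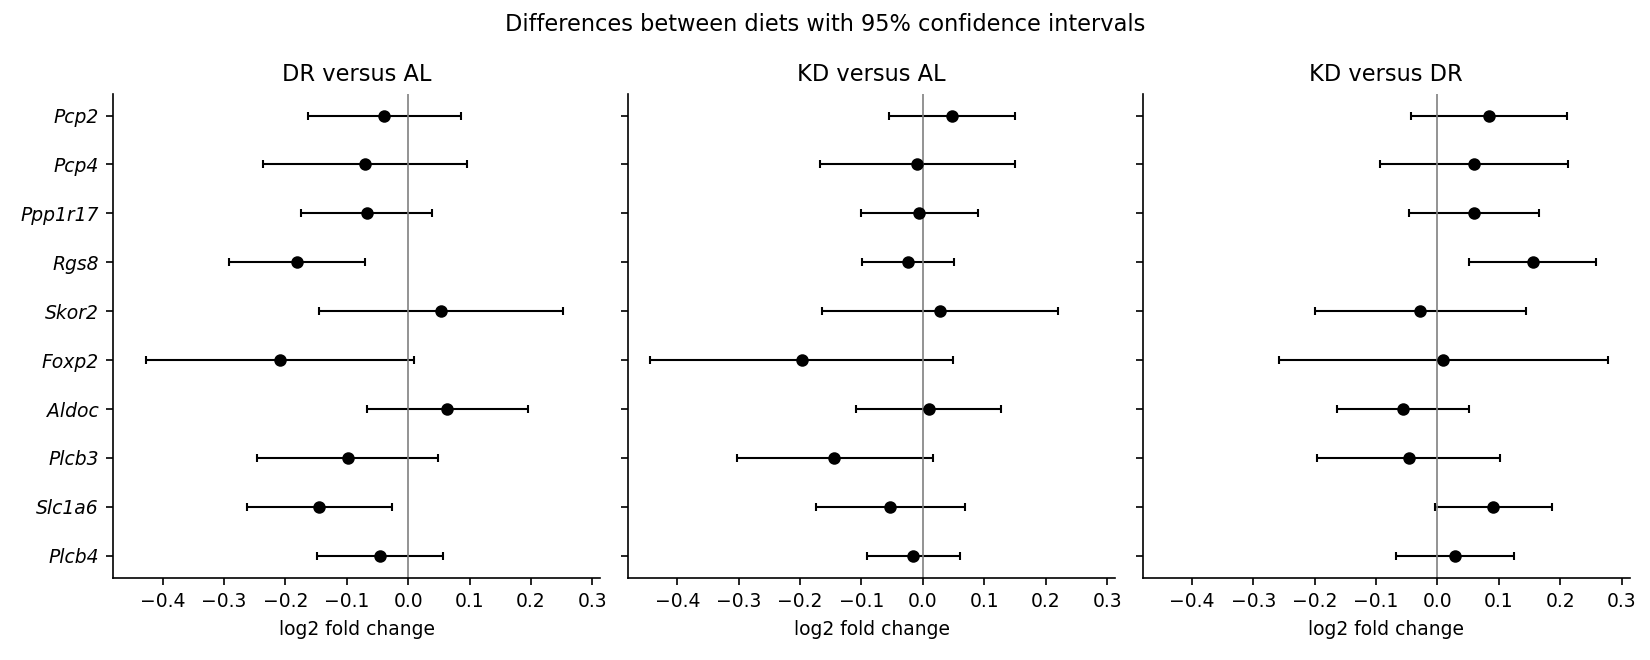
Log2 fold change (x axis) of each of the 10 genes in the 3 comparisons, with 95% confidence intervals from edgeR's fit of 4 against 4 mice. The interval leaves out 0 for Rgs8 and Slc1a6 in DR versus AL and for Rgs8 in KD versus DR; no gene passed the adjusted threshold.

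The balance between the stripe classes was described in each mouse as the mean log2 CPM of Aldoc, Plcb3 and Slc1a6 minus the log2 CPM of Plcb4. Its zero point depends on gene length, and differences between mice carry the information. It was -0.28, -0.41, -0.56 and -0.61 on AL, -0.35, -0.64, -0.51 and -0.40 on DR and -0.55, -0.43, -0.62 and -0.43 on KD. The means were -0.46 ± 0.15, -0.47 ± 0.13 and -0.51 ± 0.10 (SD, n = 4 each). The diets differed by at most 0.05, less than the spread among mice of 1 diet. Without Aldoc, which glia share, the means were -1.74 ± 0.16, -1.81 ± 0.12 and -1.82 ± 0.10.

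**Figure D4:**
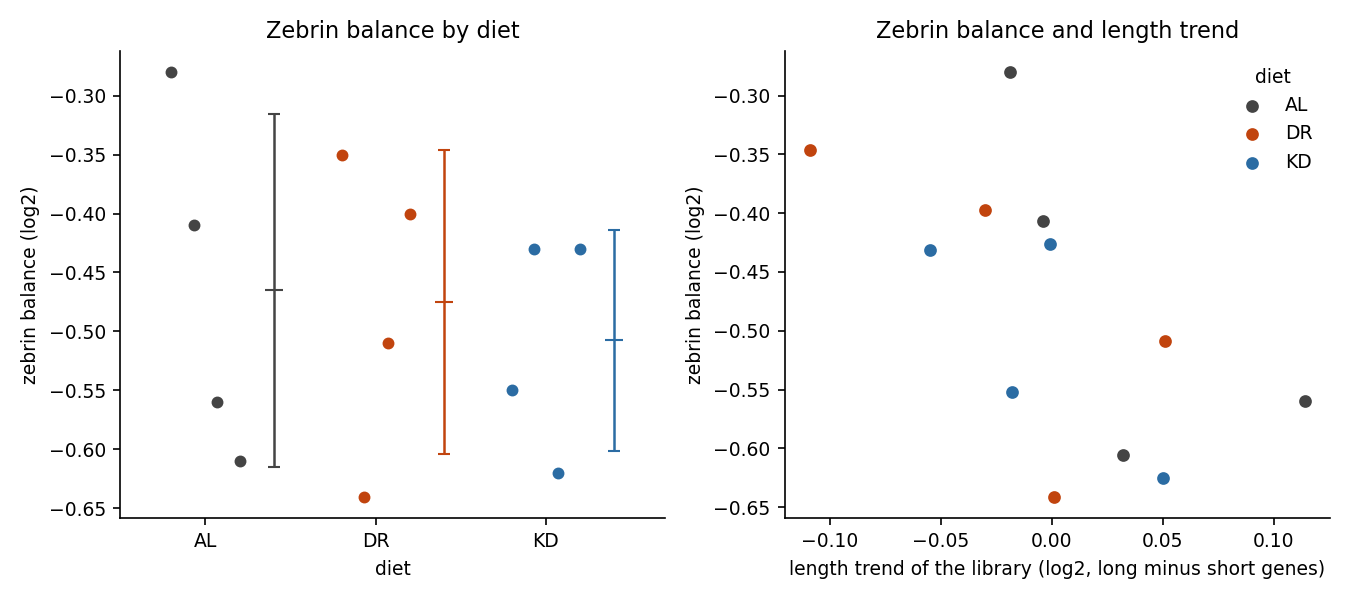
Left, zebrin balance (log2, mean of Aldoc, Plcb3 and Slc1a6 minus Plcb4) of each mouse by diet, with mean and SD (n = 4). Right, the same against the length trend of the library (log2, long minus short genes); the balance overlapped between diets, and Pearson's r with the length trend was -0.61 over 12 libraries (permutation p = 0.0339, adjusted 0.187).

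The coefficient of variation among mice of 1 diet ran from 1.91%, for Rgs8 on KD, to 17.8%, for Foxp2 on KD, and counting alone gave 0.403% to 6.27%. The values were closest for Foxp2 on AL (7.71% among mice, 5.76% from counting) and Slc1a6 on DR (2.12% and 1.58%), where 4 mice do not separate the spread from counting error. Some genes had their extremes in the same mice. Aldoc and Slc1a6 had the same highest and the same lowest mouse in all 3 diets, 6 of 6 extremes. Pcp2 and Ppp1r17 shared 5 of 6, as did Rgs8 and Plcb3. These 3 pairs shared the most among all pairs of the 10 genes. The other pairs shared 0 to 4 of 6, and no test was run on such sharing. AL replicate 1 and DR replicate 4 were each highest in their diet for the same 5 genes, Rgs8, Skor2, Aldoc, Plcb3 and Slc1a6, and KD replicate 2 was highest for 5. AL replicate 3, DR replicate 3 and KD replicate 3 were lowest for 5, 4 and 6 of 10, and for Pcp2 and Ppp1r17 each was the lowest of its diet. Replicate numbers follow the order of deposit and pair no mice.

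A property of the libraries moved with some of these levels. For each library a length trend was computed as the median log2 deviation of long genes (from 8360 exon bases) minus that of short genes (up to 2836). It ran from -0.109 in DR replicate 1 to 0.114 in AL replicate 3, with overlapping diets (0.031 ± 0.059 on AL, -0.022 ± 0.067 on DR and -0.006 ± 0.044 on KD, SD, n = 4 each). Replicate 3 had the highest trend of each diet (0.114 on AL, 0.051 on DR and 0.050 on KD). These were also the mice lowest in their diet for Pcp2 and Ppp1r17. Plcb4, with 8970 exon bases, was higher in libraries with a higher trend, over all 12 (Pearson's r = 0.74, permutation p = 0.0101, adjusted 0.0740 over 22 relations; Spearman's rho = 0.83, permutation p = 0.00139, adjusted 0.0306). Aldoc, with 3263, went the other way (r = -0.73, permutation p = 0.00599, adjusted 0.0740; rho = -0.76, permutation p = 0.00645, adjusted 0.0473). Without the 2 farthest libraries r was 0.76 for Plcb4 and -0.54 for Aldoc. The zebrin balance had r = -0.61 (permutation p = 0.0339, adjusted 0.187; rho = -0.70, permutation p = 0.0144, adjusted 0.0792), and -0.57 without those libraries. Pcp2 and Ppp1r17 had r = -0.57 each (permutation p = 0.0508 and 0.0538, both adjusted 0.197; rho = -0.62 and -0.47, permutation p = 0.0344 and 0.129, adjusted 0.152 and 0.356), and -0.51 and -0.61 without those libraries. Rgs8 had r = 0.14 (permutation p = 0.659, adjusted 0.805; rho = -0.02, permutation p = 0.956, adjusted 0.973), and the sign turned without the 2 farthest (-0.28). Skor2 moved with the corresponding trend in GC content (r = 0.73, permutation p = 0.00795, adjusted 0.0740; rho = 0.80, permutation p = 0.00308, adjusted 0.0339; 0.65 without the 2 farthest). The part of these trends in the differences among mice was not tested.

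The genes with levels most like those of Pcp2, Aldoc and Plcb4 were sought over the 12 libraries, among the 10075 genes that averaged 10 CPM or more. For Pcp2 they were Krtcap2, Pigyl and Selenow (Pearson's r = 0.89 each). For Aldoc they were Mrps25 (0.92), Nono (0.92) and Rab11b (0.91), and for Plcb4 they were Dnal1 (0.95), Bdp1 (0.91) and Mef2c (0.91). Without the 2 farthest libraries r was 0.57 for Bdp1, 0.63 for Mef2c and 0.75 to 0.89 for the other 7. Exon length was short for the 3 genes like Pcp2 (736 to 1522 bases), as for Pcp2 itself (1828). Of those like Plcb4, Bdp1 (11005) and Mef2c (15715) were long by the limit used above, and Dnal1 (6938) was not. The genes like Aldoc (4375 to 6576 bases) were longer than Aldoc (3263). These are the highest of many correlations, and libraries also share depth and composition, so they are a description.

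Other genes of Purkinje cells were read from the same fit. Of 14 such genes, 4 were called lower on DR and 0 higher, against 1.74% of all genes called lower. Their median log2 fold change was -0.14, and 12 of 14 were below 0, against 49.0% of all genes. By an unadjusted p under 0.05, 9 of 14 were lower, against 8.98% of all genes. Homer3, 1 of the 9, shares 25.4% of its exon bases with Ddx49 on the other strand. Gng13, not among the 9, shares 51.6% with Chtf18, also on the other strand. Chtf18 was at 4.56 to 4.94 CPM on AL and 5.99 to 7.64 CPM on DR. The values of Homer3 and Gng13 are uncertain to the extent that reads were shared. Itpka, which encodes a kinase that phosphorylates inositol trisphosphate, was at 39.0, 39.7, 36.0 and 34.1 CPM on AL and 30.0, 25.8, 26.3 and 30.5 CPM on DR (log2 fold change -0.40, standard error 0.07, edgeR adjusted p = 0.00725). Ryr1, a calcium release channel, was lower too, at 103.3 ± 12.4 against 132.8 ± 6.62 CPM (SD over 4 mice each), with a log2 difference of -0.36 and an edgeR adjusted p of 0.0129. Car8, whose product binds the inositol trisphosphate receptor, was at 972.8 ± 82.5 against 1153 ± 34.0 CPM (SD over 4 mice each; -0.24 on the log2 scale, edgeR adjusted p = 0.0327). Atp2a3, a calcium pump of the endoplasmic reticulum, was at 369.9 ± 31.5 against 438.7 ± 21.7 CPM (SD over 4 mice each; -0.25 on the log2 scale, edgeR adjusted p = 0.0382). Every DR mouse was below every AL mouse for these 4 genes and for Itpr1, Calb1 and Rora, 7 of 14, against 5.56% of all genes.

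Itpr1, the inositol trisphosphate receptor and the most abundant of the 14, averaged 4394 ± 166 CPM with AL feeding and 3769 ± 387 CPM with DR (SD, n = 4 each). It was not called here (log2 fold change -0.22, edgeR adjusted p = 0.0869), while the study listed it among its abundant genes lower on DR. The transcription factors Rora (-0.14, adjusted p = 0.139), Ebf1 (-0.062, 0.499), Lhx1 (0.045, 0.616) and Lhx5 (0.038, 0.862) were not called in edgeR's test either. Summed over the 14 genes the level was 8718, 8229, 8239 and 8276 CPM on AL, 6934, 6897, 7408 and 7901 CPM on DR, and 8168, 8227, 8039 and 8207 CPM on KD. The DR mice lay below the others. Itpr1 made up 52.3% of this sum, and without it the level was 4081, 3956, 3930 and 3920 CPM on AL, 3609, 3280, 3500 and 3675 CPM on DR and 3874, 3913, 3872 and 3864 CPM on KD, with the DR mice again the lowest. The number called on DR was 7 with DESeq2, 1 without AL replicate 1 and 2 without AL replicates 2 or 4 or DR replicates 2 or 3. Against AL, 0 of 14 were called on KD by edgeR or DESeq2, where edgeR called 0.00% of all genes, and 0 had an unadjusted p under 0.05, against 4.87%. Of the 14, 12 were below 0 on KD too, against 49.9% of all genes, with a median of -0.040. In KD versus DR 3 of 14 were called higher (Itpka by 0.34, Ryr1 by 0.32 and Car8 by 0.24 on the log2 scale), against 2.43% of all genes, and this count was 5 without DR replicate 4, with DESeq2 or without a filter and 2 without DR replicate 3 or KD replicate 3. This list was compiled with earlier results of these data known. Whether the 10 genes and the 14 differed in their response was not tested.

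**Figure D5:**
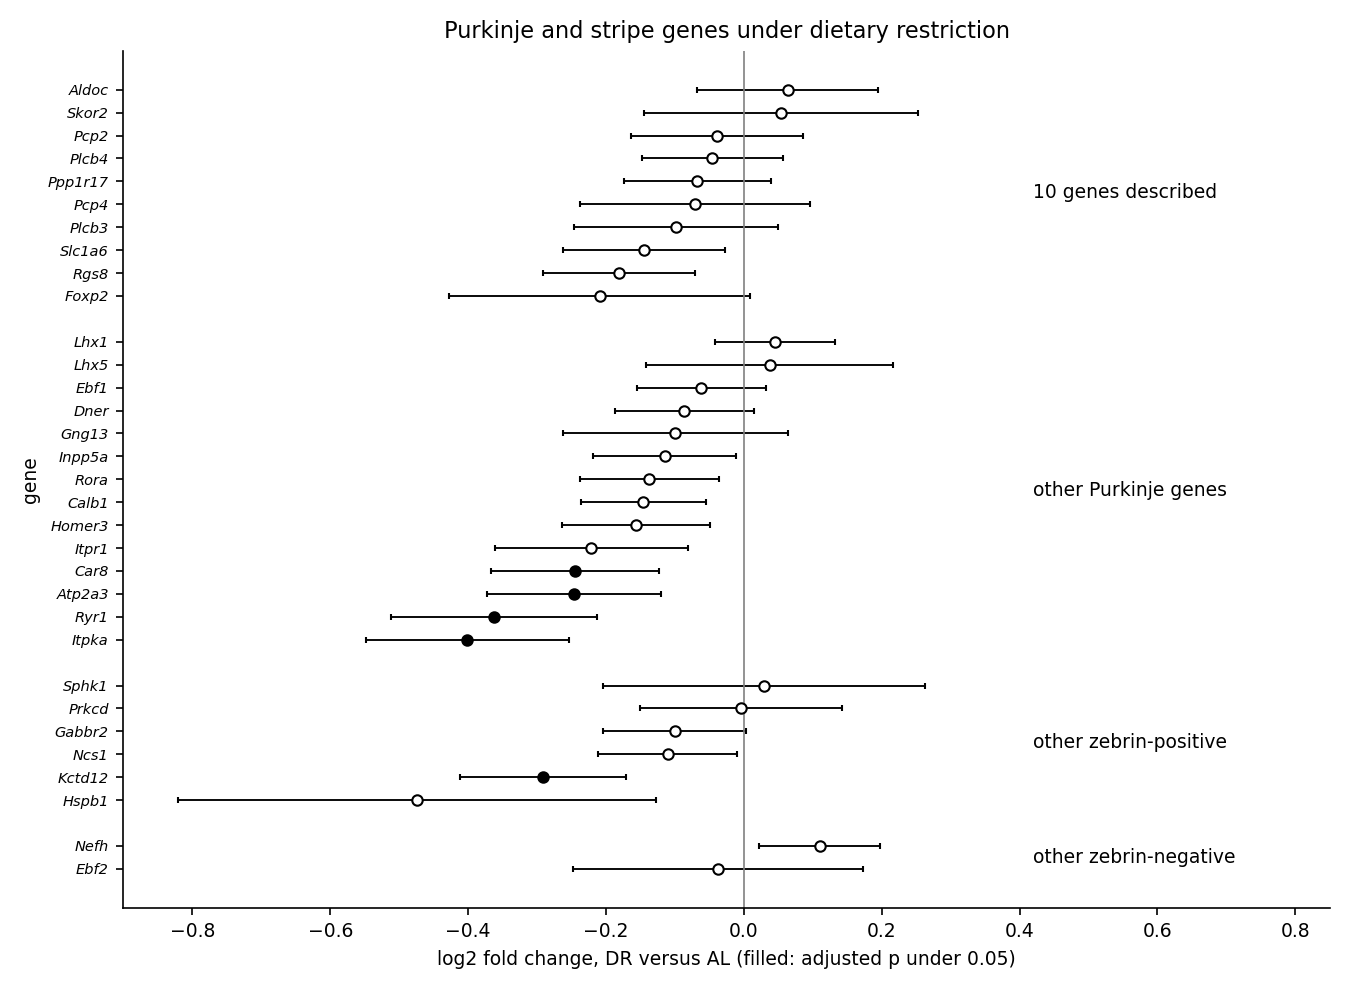
Log2 fold change on DR versus AL (x axis) with 95% confidence interval for the 10 genes, 14 other Purkinje genes, 6 other zebrin-positive and 2 other zebrin-negative stripe genes. Filled points are the genes called by edgeR: 0 of 10, 4 of 14, 1 of 6 and 0 of 2, against 3.06% of all genes, each called gene shown being lower on DR.

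Further stripe genes were read in the same way. Of 6 further zebrin-positive genes 1 was called lower on DR, against 1.74% of all genes, and 5 of 6 were below 0. By an unadjusted p under 0.05, 3 of 6 were lower, against 8.98%. The called gene was Kctd12, a GABA-B receptor subunit (log2 fold change -0.29, edgeR adjusted p = 0.0129). Of its exon bases 64.2% overlap Gm26778, which was at 0 counts in all 12 libraries. The most abundant of the 6, Gabbr2, a GABA-B receptor, was at 265.7 to 311.9 CPM and was not called (-0.10, edgeR adjusted p = 0.293). The small heat shock protein gene Hspb1 was at 3.89 ± 0.596 CPM on AL, 2.81 ± 0.586 CPM on DR and 4.37 ± 0.878 CPM on KD (SD, n = 4 each). In KD versus DR it was the 1 gene of these 6 called, and it was higher on KD, against 2.43% of all genes called higher. Its log2 fold change was 0.64 (edgeR adjusted p = 0.0351). Of 2 further zebrin-negative genes 0 were called on DR by edgeR, and 1 had an unadjusted p under 0.05, against 18.0% of all genes. That gene was Nefh, a neurofilament subunit and the more abundant of them. It was at 85.3, 84.1, 85.9 and 88.4 CPM on AL, 92.3, 89.8, 95.5 and 93.3 CPM on DR and 87.2, 95.9, 93.6 and 89.8 CPM on KD. All DR mice were above all AL mice, as for 5.32% of all genes, and KD overlapped both. Its log2 fold change on DR was 0.11 (95% confidence interval 0.022 to 0.20, edgeR adjusted p = 0.170). The median log2 fold changes on DR were -0.11 for the zebrin-positive and 0.036 for the zebrin-negative list. Against AL, KD gave no call in either of these lists or in any other gene (0.00%). By an unadjusted p under 0.05 there was 1 gene of each list, Kctd12 (log2 fold change -0.11) and Nefh (0.094), against 4.87% of all genes.

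Markers of other cells also moved with DR. All 7 astrocyte and Bergmann glia genes had a log2 fold change below 0, against 49.0% of all genes, and 2 were called lower, Aqp4 (-0.52) and Hopx (-0.47), against 1.74%. Hopx shares 27.2% of its exon bases with Hopxos on the other strand, which was at 0.468 to 1.41 CPM, so its value is uncertain to that extent. The sum over the 7 genes was 2570 ± 51.8 CPM on AL, 2309 ± 32.6 CPM on DR and 2488 ± 47.4 CPM on KD (SD, n = 4 each). Slc1a3, the glial glutamate transporter and the most abundant of them, averaged 1324 ± 41.9 CPM with AL feeding and 1184 ± 47.5 CPM with DR. It was not called here (edgeR adjusted p = 0.0749), while the study listed it among its abundant genes lower on DR. The log2 ratio of Aldoc to Slc1a3 was 0.43, 0.28, 0.21 and 0.33 on AL, 0.54, 0.50, 0.56 and 0.55 on DR and 0.37, 0.42, 0.27 and 0.40 on KD. It was above all AL and KD mice in every DR mouse. This ratio was looked at after the values of both genes were seen, and no test was run on it. The part of glial RNA in the level of Aldoc was not tested.

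The other lists were short, and 3.06% of all genes were called on DR, so that a count of 0 in them says little. Of 8 granule cell genes 0 were called on DR, with a median of -0.023 and a sum of 6332 ± 200 CPM with AL feeding and 6417 ± 37.9 CPM with DR (SD, n = 4 each). The most abundant, the cerebellin gene Cbln3, was at 1408 to 1740 CPM on AL and 1671 to 1753 CPM on DR. Of 4 molecular layer interneuron genes 0 were called (median -0.035), and the receptor gene Kit led them with 204.0 to 243.1 CPM over all libraries. Of 2 unipolar brush cell genes 0 were called (median -0.33). Eomes, a T-box transcription factor, was at 23.9 to 52.1 CPM and Lmx1a at 0.247 to 0.813 CPM. Of 3 Golgi cell genes 1 was called higher on DR, against 1.32% of all genes. It was Lgi2, the most abundant of them, at 144.5 to 155.2 CPM on AL, 187.8 to 197.3 CPM on DR and 144.7 to 165.9 CPM on KD (log2 fold change 0.37 on DR).

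Of 4 oligodendrocyte genes 0 were called on DR (median -0.15), and Mbp, which encodes myelin basic protein, led them with 1004 to 1341 CPM. None was called on DR of 5 microglia genes (median -0.083), led by the growth factor receptor Csf1r at 15.9 to 22.4 CPM, or of 4 endothelium genes (median -0.0032), led by the growth factor receptor Flt1 at 59.6 to 76.9 CPM. The single testable choroid plexus gene, Ttr, was not called either. Ttr was at 7.95 CPM in KD replicate 1 and between 0.361 and 3.19 CPM in the other libraries, and Folr1 was at 0 in 5 libraries.

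In KD versus DR, 2 astroglial genes, 1 oligodendrocyte gene, Ttr and 1 granule cell gene were called higher, against 2.43% of all genes, and 1 granule cell and 1 Golgi cell gene lower, against 2.51%. The astroglial genes were Aqp4, the water channel (log2 fold change 0.45), and Hopx (0.30), and that of Ttr was 2.17. Ttr was uneven among the KD mice, at 7.95, 0.371, 2.13 and 3.19 CPM, against 0.655 to 0.817 CPM on DR. KD replicate 2 was thus below every DR mouse. The oligodendrocyte gene was Mag, a myelin glycoprotein, at 69.9 to 76.5 CPM on KD and 56.4 to 68.5 CPM on DR (0.24). The granule cell genes were Fat2, a protocadherin, at 1091 to 1213 against 921.8 to 1042 CPM (0.20), and Cbln3, at 1409 to 1590 against 1671 to 1753 CPM (-0.21). The Golgi cell gene was Lgi2 (-0.28). Neurod6, the forebrain gene that could be tested, was not called in any comparison. For library totals the two-sided exact permutation test gave p = 0.6 for DR and 0.8 for KD against AL and 0.257 between them, with 0.0286 the smallest possible. The part of glial or other cell content in the levels of the 10 genes was not tested.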

How the data were processed

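RNA of 12 cerebellar cortex samples was sequenced (TruSeq RNA v2, a kit that does not mark strand). The authors trimmed reads with Trimmomatic 0.39, aligned them with STAR 2.7.0f to GRCm38.p6, counted them per gene with featureCounts (Subread 1.6.4) and deposited these counts without normalization. Whether counting used strand is not given in the sources used here. Per the labels, groups were AL, DR and KD, and replicates were numbered in order of deposit. The labels give no batch, so none was fitted.

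The deposited counts were analysed with edgeR 4.0.16 in R 4.3.3. Low genes were removed with filterByExpr (at least 10 counts, 15 in total), libraries were scaled by TMM, and the quasi-likelihood test was run separately for each pair of diets, with Benjamini-Hochberg adjustment over all genes tested and a threshold of 0.05. A gene is called where its adjusted p is under this threshold. CPM are TMM-scaled over the 12 libraries, and log2 CPM used a prior count of 2. DESeq2 1.42.0, edgeR's likelihood ratio test, other scalings and filters, 1 fit of all libraries and leaving out each library were alternatives. Correlations over libraries used permutation tests. On simulated counts with 200 changed genes, 83.6% of genes changed 1.25-fold were recovered for DR versus AL, 85.1% for KD versus AL and 76.1% for KD versus DR. The changed genes averaged at least 10 CPM, and the simulated spread followed the trend over genes. Smaller changes were not simulated. All differences of the 10 genes between diets were smaller, so the share recovered at their size is not known.

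The 18 pairs of mice on 1 diet differed by more than sampling noise (chi-square per gene 4.95 to 11.6), so all were kept. The p-values weigh a difference between diets against the spread between these mice. For AL and DR mice the study reports dissection over a window early in the dark phase, and clock gene levels that shifted within it. Dissection time per mouse was not used here. The 10 genes and all lists were chosen with earlier results of these data known, and some genes of the lists are not reported here. All 10 genes are named; from each list the most abundant gene, the called genes (the 3 with the lowest p where more than 5) and genes near 0 are named with values. Symbols were matched through GENCODE for 54723 of 54752 genes, and promoter windows are from RefSeq.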

Additional observations from a re-analysis of the deposited data

Results flagged for a closer look

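An outlying mouse was sought by Dixon's test in 78 groups of 4, and 5 were found. Chance gives about 1 in 20. Of the 10 genes, Skor2 stood out in AL replicate 1, at 17.3 CPM against 13.4 to 13.9 CPM in the other AL mice, and Plcb4 in KD replicate 3, at 394.1 CPM against 377.2 to 380.1 CPM in the other KD mice. The summed level of the 14 other Purkinje genes was 8718 CPM in AL replicate 1, against 8229 to 8276 CPM in the other AL mice, which lie above every DR mouse as well. The granule cell sum was 6630 CPM in AL replicate 3, against 6202 to 6258 CPM. The endothelium sum was 130.0 CPM in DR replicate 2, against 124.2 to 124.8 CPM.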

How the results depend on the processing

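No paired analysis was possible because the labels give no replicate numbers or litters shared between diets. The number of genes called on DR was 583 and became 1012 with DESeq2, 998 with the likelihood ratio test and 1258 without a filter on low counts, and 235 to 712 when 1 library was left out. For KD versus AL it was 0 and became 10, 18 and 118 under the same alternatives, and 0 to 6. For KD versus DR it was 942 and became 1503 without a filter, and 467 to 946. Of the 10 genes, 1 (Rgs8) was called on DR with DESeq2, the likelihood ratio test, no filter and all 12 libraries in 1 fit, and in KD versus DR with DESeq2 and without a filter. Leaving out 1 library gave 0 to 1 called in either comparison and 0 in KD versus AL. Scaling by library size alone made 57.0% of the genes called on DR higher, against 43.2% with TMM, and shifted the median of all genes by 0.021. The 10 genes kept their direction on DR. In KD versus DR the share higher was 37.9% against 49.2%.

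Small differences changed sign when 1 library was left out. These were Pcp2 on DR (-0.078 to 0.0036) and, on KD against AL, Aldoc (-0.037 to 0.062), Pcp4 (-0.070 to 0.039), Plcb4 (-0.029 to 0.0049), Ppp1r17 (-0.036 to 0.030) and Skor2 (-0.014 to 0.12). In KD versus DR they were Foxp2 (-0.072 to 0.13, and -0.0099 with library size alone), Plcb3 (-0.12 to 0.0034), Plcb4 (-0.0070 to 0.050) and Skor2 (-0.085 to 0.026). On DR, Rgs8 ran from -0.21 to -0.14, Aldoc from 0.017 (without AL replicate 3) to 0.12 (without AL replicate 1), Skor2 from 0.015 (without AL replicate 2) to 0.155 (without AL replicate 1), Pcp4 from -0.13 (without AL replicate 3) to -0.021 (without AL replicate 2), and Plcb4 from -0.068 (without DR replicate 2) to -0.0056 (without DR replicate 1). The zebrin balance moved by less than its spread under every alternative run, but its differences changed sign too (-0.058 to 0.051 for DR minus AL, -0.093 to 0.016 for KD minus AL and -0.091 to 0.007 for KD minus DR). Foxp2 has no value where a mean above 10 CPM was required. The cause of these changes was not tested.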
